A study of Caenorhabditis elegans with 2 samples.

Results

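Binding of EFL-1::GFP was examined at the small nuclear RNA (snRNA) and small nucleolar RNA (snoRNA) genes of first-stage (L1) Caenorhabditis elegans larvae. All 475 genes annotated as snRNA (129) or snoRNA (346) on the nuclear chromosomes were taken, out of 46890 nuclear genes of every kind. Each was extended by 250 bp on both sides, and a gene was counted when the summit of a peak lay inside. Of the 475 genes, 101 (21.3%) held a summit of the authors' optimal peak list, against 8.10% of all nuclear genes counted the same way. Of 103 pairs of a gene and a summit, 83 (80.6%) had the summit in the 100 bp before the gene's own start. A summit outside every promoter of a protein-coding gene was found at 77 of the 101 genes. The excess over other genes came mainly with replicate 2. With the strongest entries of replicate 1 alone, 6.53% of the 475 genes and 7.36% of all nuclear genes held a summit. Within 250 bp of the gene's start these shares were 6.11% and 4.53%. Of the 31 summits of these replicate 1 entries at the 475 genes, 12 (38.7%) lay in the 100 bp before the start. Of the 9 genes whose peak had a −log10 q above 2 in each replicate, 2 had a summit outside those promoters.

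Chromatin immunoprecipitation with sequencing (ChIP-seq) had been run on 1 group of 2 libraries, biological replicates 1 and 2 by their labels, and peak lists were deposited. The animals were whole L1 larvae of pooled sexes and of unstated age from strain YL424. They carry the unc-119(ed3) mutation on chromosome III and the insertion vrIs68, in which the efl-1 promoter and 3′ UTR drive EFL-1 fused to GFP and FLAG beside a functional unc-119 gene. Every library carried both, and no other strain, stage or treatment was used. Because whole animals were pooled, strong binding in few cells and weak binding in many cannot be told apart. No test between conditions was possible, and all counts below are descriptions of places in the genome. The lists hold no read counts, so the depth was unknown.

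EFL-1 is an E2F-family transcription factor that binds DNA with a DP partner and is a subunit of the DREAM complex, which represses cell-cycle genes. snRNAs are the RNA parts of the spliceosome, and in this nematode the SL RNAs of the sls genes donate the spliced leaders that are joined to messenger RNAs. snoRNAs guide the methylation and pseudouridylation of ribosomal and other RNAs inside particles with proteins such as fibrillarin and dyskerin. snRNA genes are transcribed from a proximal sequence element that lies upstream of the start and is bound by the SNAPc complex. tRNA genes, which RNA polymerase III transcribes, carry instead a B box that is bound by TFIIIC, and snoRNA genes can lie within introns of other genes or stand alone.

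The stretches upstream of the bound genes carried recurring letters, which are shown here because they divide the members into kinds. The letters GCGNAACNC and TGTCNG, called the proximal-element letters below, followed each other on the gene's strand within 20 bp at 23 bound genes. The first 6 are the strongest peaks among the 19 of these genes on chromosomes II to V and X, and some of the other 4 scored higher than the weaker ones shown. The capitals mark those letters, and each line reads 5′ to 3′ on the gene's strand.
sls-2.8: cgGCGGAACCCggcaaaTGTCCGtccacag
Y53F4B.47: gcGCGGAACCCgtcactTGTCTGctgcggc
W05B2.8: caGCGGAACCCatgacaTGTCTGctacact
Y55F3BR.9: ccGCGGAACTCgggaggTGTCGGccgccgc
sup-6: cgGCGGAACCCgccacaTGTCGGcacacac
F01D5.12: ccGCGGAACCCgcaagtTGTCCGccgcgtc
In ce11 coordinates these stretches lie at chrIII:12250400-12250429 (plus strand), chrII:15025947-15025976 (minus), chrIII:10989606-10989635 (plus), chrIV:867168-867197 (minus), chrII:12945000-12945029 (minus) and chrII:14018476-14018505 (minus). In this set, sls-2.8, W05B2.8 and sup-6 are snRNA genes and the others are snoRNA genes. The spacing was regular: of 52 members with both sets of letters, 46 had their first bases 15 bp apart. Sequences were credited to the RefSeq copy of WBcel235.

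The next 6 are from bound snoRNA genes with the letters GTTCNANNC on the gene's strand, called the B-box letters below and again in capitals, and with no proximal-element letters. They are the strongest peaks among the 15 of these 21 genes on chromosomes II to V and X, and some of the other 6 scored higher than the weaker ones shown.
Y75B12B.12: ttcaaacaacagacgcggGTTCAACTCctc
M106.6: gtgtgcaatcgctcgcggGTTCGAGGCcgg
T24H7.6: gtcgctcacacaatgtagGTTCGACCCccg
F30H5.4: cggtttggcgcgaccgttGTTCGACCCcca
C04G6.12: tacgaattgagtgcgttaGTTCAACCCgct
C51F7.3: ggtgtgcgcgcgcttgtcGTTCAAACCttg
They lie at chrV:15191096-15191125 (minus), chrII:10840282-10840311 (plus), chrII:6248682-6248711 (plus), chrIII:502762-502791 (plus), chrII:5105234-5105263 (minus) and chrV:12303620-12303649 (plus). Apart from the C51F7.3 stretch, which ends 59 bp before its gene, these stretches end 3 to 13 bp before the start of the gene. The proximal-element and B-box letters were chosen after the upstream sequences of the members had been seen.

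The spliced leader genes sls-2.1 and sls-2.2 show how close copies can fall on both sides of such a letter search. The same stretch from 60 to 31 bp upstream is given for both, with the TGTCNG letters in capitals.
sls-2.1: tgcctcgaaagaTGTCTGtacacacatttg
sls-2.2: tgcctcgaaagcggtcggtacacacacttg
They lie at chrII:5844805-5844834 and chrII:5543538-5543567, both on the plus strand. The stretch of sls-2.2 held no match and was counted as having neither kind of letters, although its peak (score 324) and that of sls-2.1 (score 280.3) had their summits at almost the same place, 46 and 43 bp upstream.

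The 2 replicates differed in what they showed at these genes. The optimal list held 3824 peaks and was identical to the pooled-list entries with a score of at least 35.7, the score being the authors' own value with no stated scale. All 101 bound members had an entry of replicate 2 with a −log10 q above 2 under their strongest peak, as did 99.8% of all peaks of the optimal list. Of these members, 48 had any entry of replicate 1. Only 9 had an entry of replicate 1 above that limit. Over the whole optimal list, 76.3% of peaks overlapped an entry of replicate 1 and 31.4% one above the limit, against 47.5% and 8.91% of the bound members.

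With the strongest 3824 entries of replicate 1 in place of the optimal list, 31 members (6.53%) held a summit, against 7.36% of all nuclear genes. Within 250 bp of the gene's start only, which gives every gene the same span, the order was the opposite, with 6.11% of members and 4.53% of all nuclear genes. The same number of replicate 2 entries gave 109 members (22.9%), against 8.09% of all nuclear genes, and at the start 22.5% against 5.92%. For snoRNA genes alone the shares were 6.65% with replicate 1 and 26.6% with replicate 2, and for snRNA genes 6.20% and 13.2%. The part that the difference between the libraries plays in the results below was not tested.

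The complete lists of peaks and background were longer. The pooled list held 28550 entries and put a summit at 189 members (39.8%), against 33.6% of all nuclear genes. The replicate 1 list held 30000 entries with summits at 102 members (21.5%), against 36.1% of all nuclear genes, and within 250 bp of the start it reached 18.9% of members and 18.7% of all nuclear genes. The replicate 2 list held 28686 entries with summits at 221 members (46.5%), against 29.1% of all nuclear genes, and at the start 45.1% against 19.2%. The span of a window differs between genes, with median lengths of 125 bp for members and 2027 bp for protein-coding genes. At the median, tRNA genes (72 bp) and miRNA genes (95 bp) were shorter than members. Counted within 250 bp of the gene's start only, the optimal list reached 21.1% of members and 5.88% of all nuclear genes. No list held a summit at 210 members (44.2%). This was not counted over all nuclear genes, so the share cannot be called high or low.

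snoRNA genes held summits more often than snRNA genes in each list. In the optimal list 87 of 346 snoRNA genes (25.1%) and 14 of 129 snRNA genes (10.9%) were bound. The share of 36-base stretches that occur at a single place in the genome also differed. Its median over the windows was 100% for snoRNA and 84.5% for snRNA genes, and the part this plays was not tested. By the window at the start, the optimal list reached 24.9% of snoRNA genes, 10.9% of snRNA genes, 21.4% of the 612 tRNA genes, 5.36% of the 261 miRNA genes and 9.72% of the 19973 protein-coding genes. tRNA genes thus stood nearest to the snoRNA genes. Of the 100 distinct member summits, 1, at sls-2.9, lay within 250 bp of an annotated tRNA gene. On chromosome X, 2 of 33 snoRNA genes (6.06%) were bound and on chromosome III 9 of 54 (16.7%), and on the other chromosomes the share ran from 27.0% to 31.0%. All nuclear genes were not counted by chromosome, so these differences cannot be called a trait of snoRNA genes.

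**Figure D1:**
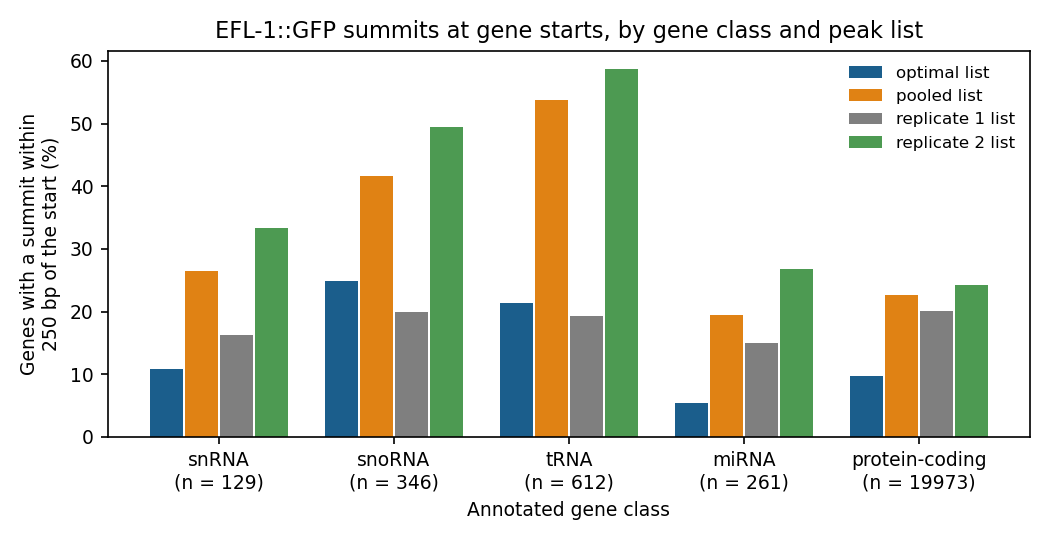
Share of genes of each annotated class, in percent, with a summit within 250 bp of the start, for the optimal, pooled, replicate 1 and replicate 2 lists (bars). The snoRNA bar of the optimal list stands at 24.9% and the snRNA bar at 10.9%, and in the replicate 1 list the snoRNA bar (19.9%) is at the level of the protein-coding genes (20.1%).

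The strongest snRNA peak was at a spliced leader gene, and the next ones were at spliced leader and other snRNA genes. The peak of sls-2.8 (chromosome III 12250465 to 12250575) scored 1659 and ranked 205 of 3824, with replicate ranks of 220 (replicate 1) and 202 (replicate 2). Its summit lay 63 bp upstream of sls-2.8 and also in the promoters of tim-1, a relative of the Timeless clock and replication genes, and of Y75B8A.23, at −238 and −258 bp from their starts. sls-2.4 scored 433 (44.2 for replicate 1, 386 for replicate 2), with its summit 45 bp upstream and in no promoter of a protein-coding gene. Both peaks had a −log10 q above 2 in each replicate.

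The other 3 bound spliced leader genes had weaker entries in replicate 1. For sls-2.2 (score 324) the replicate 1 entry ranked 3610 and the replicate 2 entry 756, and for sls-2.1 (280.3) they ranked 2088 and 811. sls-2.9 scored 89.2 with its summit 80 bp upstream, and it is the member whose peak lay near an annotated tRNA gene. A second summit at sls-2.2, with a score of 125, lay 156 bp downstream of its start. Of the 18 genes named sls-2, which encode the SL2 class of leaders used mainly at downstream genes of operons, 5 were bound in the optimal list, 13 in the pooled list and 6 and 14 in the lists of replicates 1 and 2.

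None of the 12 genes named sls-1, which encode the SL1 leader, held a summit in any list. In these windows the median share of 36-base stretches that occur at a single place in the genome was 0, and the highest was 23.3%, whereas for the sls-2 genes the median was 90.9%. Most reads of 36 bases from such windows could not be placed at a single copy. The read length, and how such reads were treated, are not given in the sources used here. Absence of a summit at sls-1 is therefore not taken as a measure of binding. The longest runs of neighbouring members were 7 sls-1 genes (sls-1.10 to sls-1.5) and 4 sls-1 genes (sls-1.4 to sls-1.1) on chromosome V, together with 4 snoRNA genes (K07C5.18, K07C5.10, K07C5.12 and K07C5.11) that lie in introns of nol-56. No list had a summit at any gene of these 3 runs. The snoRNP core gene nol-56 itself had an optimal peak in its promoter, with a score of 443 and a summit at −252 bp.

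The remaining snRNA genes were grouped by sequence, at 80% identity or more. The largest group, of 23 genes about 102 bp long, had 3 bound members. Among these, W05B2.8 in an intron of the dynein heavy chain gene dhc-4 scored 363 (35.2 in replicate 1, 312 in replicate 2), with its summit 67 bp upstream. R07E5.16, in an intron of the mitochondrial pyruvate carrier gene mpc-1, scored 73.1 with its summit 76 bp upstream. Its second summit lay 124 bp downstream of the start and scored 37.7, and the replicate 1 entry under its strongest peak had its summit 70 bp downstream. F54D8.7 scored 65.9 with its summit 72 bp upstream and had no replicate 1 entry. Of the 23 genes, 15 had the letters TATATAA upstream, and all 3 bound snRNA genes with these letters had them 31 bp before the start at the median. Of the 24 members with TATATAA, 3 were bound.

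A group of 19 genes about 187 bp long, with C47F8.9 among them, had no bound member in the optimal list, 2 in the pooled list and 3 in each replicate list, although 18 of the 19 had proximal-element letters. The median unique share of its 36-base stretches was 65.1%, with values from 0 to 98.0%. A group of 13 genes of 165 bp had 2 bound members, sup-6 and sup-39. sup-39 is a U1 snRNA gene known from mutations that suppress a splice-site defect. sup-6, in an intron of F58G1.7, scored 168 with its summit 42 bp upstream, and its replicate ranks were 4077 and 1246. sup-39, in an intron of C15F1.5, scored 72.5 with its summit 40 bp upstream and no replicate 1 entry. mir-1831, annotated as an snRNA gene and lying within sup-39, shares that summit and adds no peak of its own.

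A group of 12 genes of about 122 bp had 2 bound members. F38E11.10 scored 197 with its summit 56 bp upstream, and its replicate 1 entry ranked only 13530, with a summit at −230 bp. F32B5.9, on the opposite strand in an intron of the protease gene cpz-1, scored 80.9 with its summit 42 bp upstream and no replicate 1 entry. In a group of 5 genes of 144 bp, C52E4.8 alone was bound, with a score of 426, replicate scores of 42.3 and 378, and a −log10 q above 2 in each. Its summit lay 58 bp upstream and in the promoter of snr-4, an Sm protein gene, at −337 bp from that start. None of the 10 smy genes annotated as snRNA, whose RNAs are found in nematode Sm particles, had an optimal summit, and 2 had a pooled one. smy-2, annotated as a snoRNA gene, was bound, with a score of 135.

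**Figure D2:**
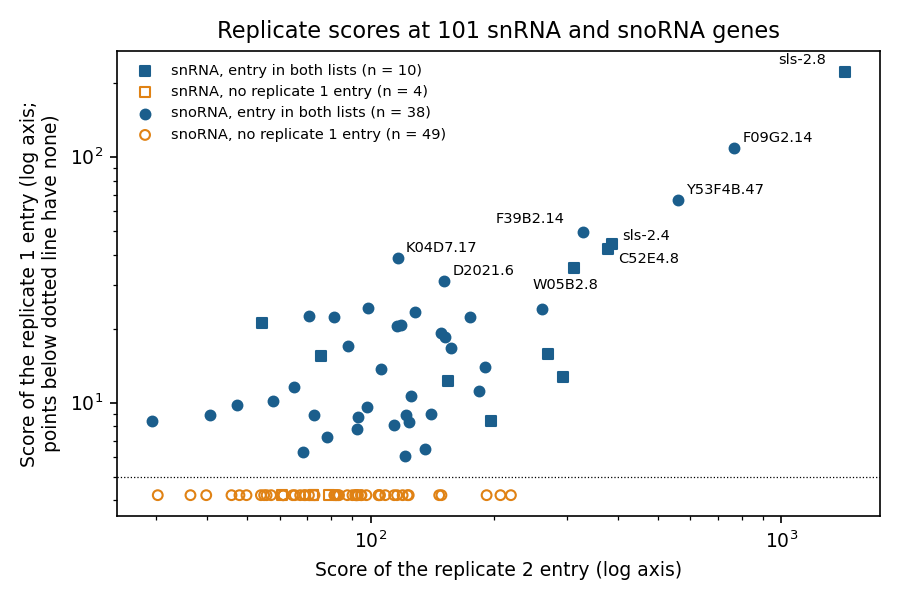
Scores of the replicate 2 entry (x axis, log) and of the replicate 1 entry (y axis, log) that overlap the strongest optimal peak of each of the 101 bound members. Squares are snRNA and circles snoRNA genes; open symbols below the dotted line are the 53 members with no replicate 1 entry, and sls-2.8 has the highest score in both lists (221 and 1430.2).

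Among the snoRNA genes, 5 had a −log10 q above 2 in each replicate. F09G2.14 scored 869.9 (108 in replicate 1 and 768 in replicate 2), with its summit 71 bp upstream and in the promoter of F09G2.2. Y53F4B.47 scored 633 (66.6 and 559), 93 bp upstream and in the promoter of cmtr-1, a gene for a cap methyltransferase of messenger RNA. F39B2.14 scored 373 (49.6 and 329), 117 bp upstream, in the promoters of tmem-107, a gene of the ciliary transition zone, and of rps-26, a small-subunit ribosomal protein gene. D2021.6 scored 178 (31.3 and 151), 19 bp upstream, in the promoter of sdha-1, a succinate dehydrogenase subunit gene. K04D7.17 scored 154 (38.6 and 116), 51 bp upstream, in the promoter of rack-1, a ribosome-associated scaffold gene. All 5 thus lay in promoters of protein-coding genes, and the only 2 of the 9 members so supported with a summit outside these promoters were the snRNA genes sls-2.4 and W05B2.8.

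Other strong snoRNA peaks in promoters of protein-coding genes lacked such support in replicate 1. C36E8.11 scored 287 with its summit 57 bp upstream and at −264 bp from the start of tif-1A, an RNA polymerase I initiation factor gene. Y37E3.20 (216) lay in an intron of pcyt-2.1 and in that gene's promoter, Y75B12B.12 (207) near Y75B12B.11, and Y53F4B.48 (205) near gst-27. M03D4.78 (195) had its summit 160 bp upstream and at −179 bp from the start of zen-4, a kinesin gene of cytokinesis, with almost the same place in each replicate list (−161 and −160 bp). T23G11.12 (164) lay near T23G11.11. Of these, Y37E3.20 and Y75B12B.12 had no replicate 1 entry.

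The strongest snoRNA peaks outside promoters of protein-coding genes named here scored 4.69 to 6.31 times lower than that of F09G2.14. Y55F3BR.9, on the opposite strand in an intron of Y55F3BR.2, scored 186 with its summit 39 bp upstream, and the replicate 1 entry ranked 5439. Y38F2AR.14, in an intron of Y38F2AR.12, scored 179.9 with its summit 57 bp upstream and no replicate 1 entry. F59C6.15 (171) and M7.15 (167), outside protein-coding genes, had summits 87 and 45 bp upstream, with replicate 1 ranks of 1875 and 1620. K02A11.12 (151) had its summit 16 bp upstream in the optimal list and in both replicate lists, where it ranked 1296 and 1439. F25H2.15 (144) had its summit 46 bp upstream and no replicate 1 entry. M106.6 (141) lies in an intron of mix-1, a condensin and dosage compensation gene, F01D5.12 (139.7) in one of F01D5.10, and ZK994.7 (138) in one of pxn-1, a peroxidasin gene.

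The position of the summits was the most regular feature. Over 103 pairs of a member and a summit, the median summit lay at −47.0 bp, with quartiles of −62.0 and −29.0 bp, and 89 lay upstream of the start. The 100 bp before the start held 83 summits (80.6%), although this stretch is 15.8% of the summed windows. For snRNA genes the median was −46.5 bp (16 pairs) and for snoRNA genes −48.0 bp (87 pairs). Summits at protein-coding starts, counted within 250 bp, had a median of −131 bp, with 27.3% in the 100 bp before the start, against 81.4% for members in the same window. tRNA summits had a median of −16.0 bp, near the start of genes of 72 bp. A summit at or after the start was the strongest one at 12 members, among them C26C6.13 (216 bp), W06A7.12 (180 bp) and C27H5.10 (301 bp).

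The same position was seen in replicate 2 and less clearly in replicate 1. Among the strongest 3824 entries, 92 of 111 summits of replicate 2 (82.9%) and 12 of 31 of replicate 1 (38.7%) fell in the 100 bp before the start, with medians of −51.0 and −44.0 bp. Of the 48 replicate 1 entries under the bound members' peaks, 16 (33.3%) had their own summit there. In the complete replicate 1 list the share was 25.2%. At members with no optimal summit, 32 of 99 pooled summits (32.3%) lay in that stretch, with a median of 0.0 bp. Summits of the optimal list in and out of promoters of protein-coding genes had like positions, with medians of −51.5 and −46.0 bp.

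**Figure D3:**
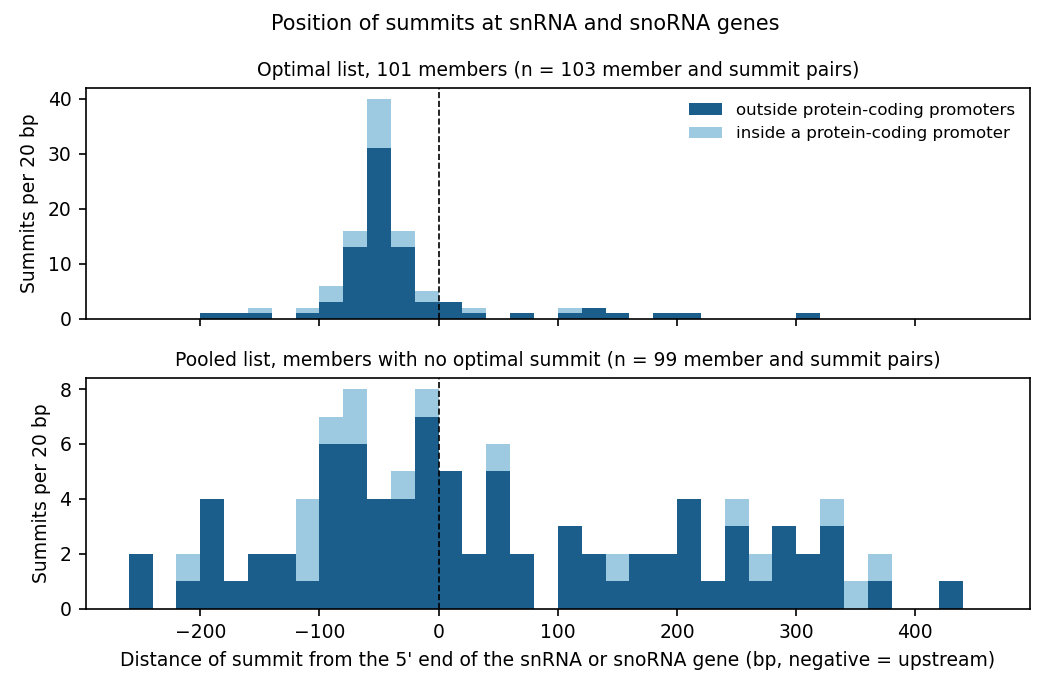
Number of summits per 20 bp against the distance from the 5′ end of the snRNA or snoRNA gene (bp, negative upstream), in the optimal list (top, 103 pairs) and in the pooled list at members with no optimal summit (bottom, 99 pairs). Dark bars are summits outside and light bars inside promoters of protein-coding genes; the top panel has its mass just upstream of the start, with a median of −47.0 bp.

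The peaks were of middling strength. The median score over the 101 strongest member peaks was 98.4, beside 101 for all 3824 peaks, and 7 of the 101 members (6.93%) were in the top 20% of the list. snRNA genes had a median of 183 (65.9 to 1659) and snoRNA genes one of 93.7 (38.6 to 869.9). Members with a summit outside promoters of protein-coding genes had a median of 91.6, above the 68.4 of all 1503 peaks outside those promoters. The 24 members with every summit inside them had a median of 159, beside 149 for all 2321 promoter peaks. Of the bound members, 69.3% had a peak of the most frequent width, 336 bp, against 54.6% of the list.

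**Figure D4:**
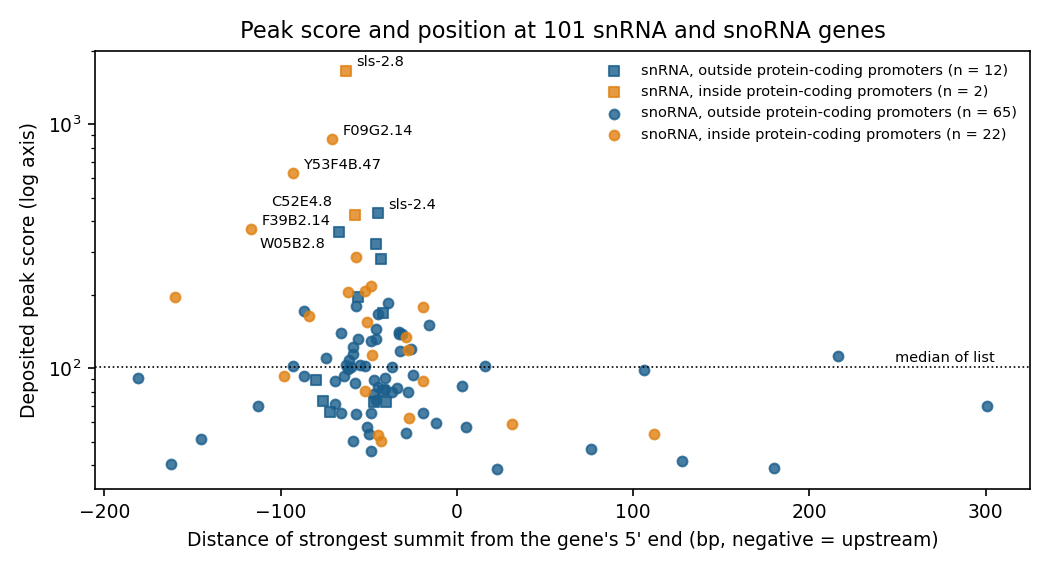
Deposited score (log axis) of the strongest optimal peak of each of the 101 bound members against the distance of its summit from the gene's 5′ end (bp). Squares are snRNA and circles snoRNA genes, coloured by whether the summit lies in a promoter of a protein-coding gene; the dotted line is the median of the whole list (101), and sls-2.8 stands highest at 1659.

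In the optimal list, binding at members was mostly apart from promoters of protein-coding genes. A promoter here reached from 500 bp before to 100 bp after each annotated transcript start. Of the 100 distinct summits at members, 76 lay outside, against 1503 (39.3%) of all optimal summits, and these 76 made up 5.06% of those 1503. The share was 12 of 14 for bound snRNA genes and 65 of 87 (74.7%) for bound snoRNA genes. With replicate 1 entries alone, 17 members had a summit outside those promoters, and with replicate 2 entries alone 80 had.

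Of the 475 members, 279 lay within 1 or more of 237 protein-coding genes. Binding was not confined to free-standing genes: 30 of 178 in introns of the same strand (16.9%), 13 of 47 in introns of the opposite strand (27.7%) and 49 of 186 outside protein-coding genes (26.3%) were bound. For snoRNA genes the shares were 17.5% (25 of 143), 44.4% (12 of 27) and 33.1% (41 of 124). Members that overlapped exons of a same-strand host were bound in 4 of 42 cases. The host's promoter held an optimal summit for 16 of the 48 bound hosted members (33.3%) and for 77 of the 231 unbound ones (33.3%). In 9 of the 48, the member's own summit lay in a promoter of its host. These 9 are among the 16, so the shares of bound and unbound members are not like measures. Over all protein-coding genes, each counted 1 time, 14.8% had such a promoter summit, whereas a host was counted for each of its members.

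The snoRNA genes bound inside introns outside any promoter came from hosts of varied function. On the same strand these were, with proximal-element letters, T06D8.11 in plpr-1, C16D9.11 in rol-3, a receptor kinase gene, C08D8.3 in C08D8.1 and W04D2.7 in the innexin gene inx-11, beside F01D5.12 and ZK994.7 above. With B-box letters they were T08B2.13 in fars-1, a phenylalanyl-tRNA synthetase gene, ZK546.18 in the Mediator gene mdt-4, T24H7.6 in T24H7.2, F11A10.9 in rbm-34, C51F7.3 in frm-7 and Y43F8C.22 in Y43F8C.7, beside M106.6. With neither they were Y71F9AM.7 in cogc-3, C05D2.15 in madf-11, C10C6.8 in catp-8, C27H6.5 in unc-41, W06A7.12 in ret-1 and W08G11.6 in W08G11.3, beside Y38F2AR.14. C51F7.4 shares the summit of C51F7.3, and it and C14C10.8 in ril-2 overlap exons of their hosts.

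On the opposite strand, Y55F3BR.9 was joined by T04A8.17 in ppat-1, C07A9.14 in ncx-7, ZK484.9 in haf-9, C04G6.12 in the kinase gene mpk-2, H04D03.5 in smrd-1, T03F7.8 in cutl-18, C17D12.8 in pcmd-1 and B0334.12 in twk-5. C27H5.9 and C27H5.10 in pdl-1 share a summit, 113 bp upstream of the former. Scores of the hosted snoRNA genes named in these sentences ran from 38.99 (W06A7.12) to 186 (Y55F3BR.9). T27A3.9 (129) and W01C9.6 (50.5) overlap a protein-coding gene in part.

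Another 30 snoRNA genes stood outside protein-coding genes with a summit outside their promoters, with scores from 38.6 to 171. With proximal-element letters these were Y74C9A.6, F59C6.15, F25H2.15, C18A3.12, T08B6.64, T26A8.6, Y67A10A.14 and WBGene00220185, and with B-box letters Y39G10AR.24, T19B4.8, T10B9.11, W03C9.9, F30H5.4 and F32E10.10. F12F6.11 had both. With neither there were 15, namely Y23H5B.10, C26C6.13, T28B8.11, ZK265.10, K02A11.12, K07C10.2, ZK20.9, Y17G7B.25, ZK643.9, H09I01.2, C46C2.8, M7.15, W06H8.17, T06C12.16 and C34E11.20. The lowest score of all bound members, 38.6, was that of C34E11.20, with its summit 23 bp after the start.

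snoRNA genes with B-box letters were the most often bound. Within 100 bp upstream and on the gene's strand, 29 snoRNA genes had B-box letters alone and 21 of them (72.4%) were bound in the optimal list. Of 60 snoRNA genes with proximal-element letters alone 25 (41.7%) were bound, of 4 with both 3, and of 253 with neither 38 (15.0%). Among snRNA genes, 13 of 99 with proximal-element letters alone (13.1%) and 1 of 29 with neither were bound. The 99 include 10 sls-1 genes, at which absence of a summit is not taken as a measure of binding. The letters themselves were chosen after these upstream sequences had been seen, so the shares are descriptions. For members of both kinds, the strongest entries of replicate 1 alone reached 3 of the 29 with B-box letters alone, 12 of the 159 with proximal-element letters alone and 15 of the 282 with neither. The replicate 2 entries reached 22, 42 and 42.

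These letters had recurring places relative to the start, with copies of a gene, such as the sls-1 genes, each counted. The first base of TGTCNG lay at a median of −48.0 bp and that of GCGNAACNC at −62.0 bp, both in bound and in unbound members. The first base of the B-box letters lay at −14.5 bp, with quartiles of −24.2 and −12.0 bp. These quartiles were −19.2 and −12.0 bp in the 24 bound members with the letters, and −65.0 and −12.0 bp in the 10 unbound ones. Summits had medians of −49.0 bp at members with proximal-element letters alone, −43.0 bp at those with B-box letters alone and −46.5 bp at those with neither. With neither kind, 65.0% of summits lay in the 100 bp before the start, against 89.7% and 90.5%. Upstream of protein-coding genes, TGTCNG or GCGNAACNC was found before 1038 of 19973 genes (5.2%) and GTTCNANNC in 1.43%, against 34.5% and 7.16% of members. The GTTCNANNC letters were in the 100 bp upstream of 0.817% of tRNA genes, whose own B box lies inside the gene.

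**Figure D5:**
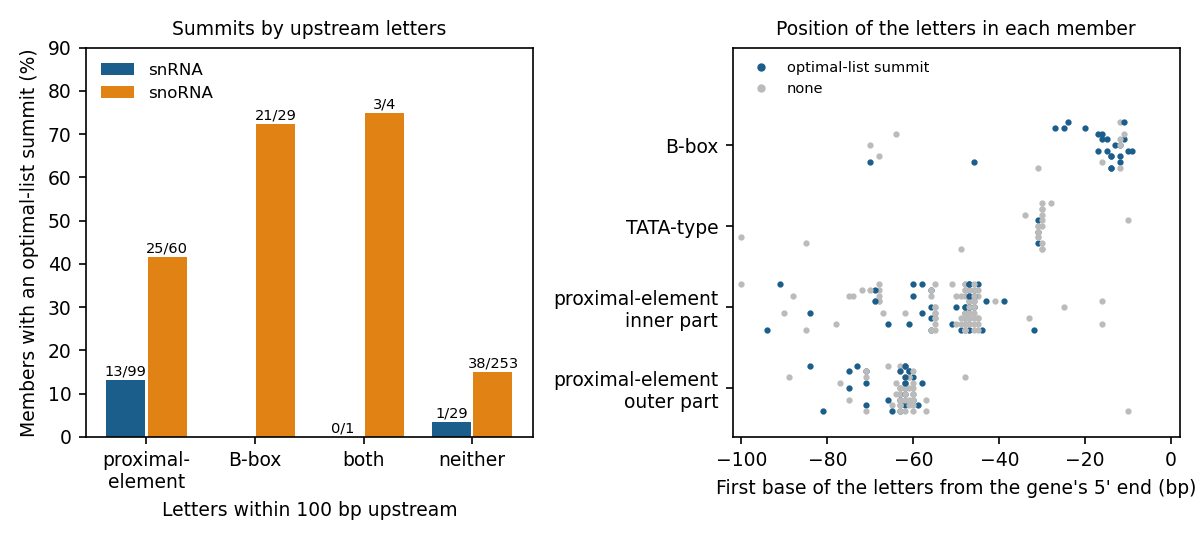
Left, share of snRNA and snoRNA genes with an optimal summit, in percent, by the letters within 100 bp upstream (numbers of genes above the bars). Right, distance of the first base of each set of letters from the gene's 5′ end (bp), 1 point a member, blue with and grey without an optimal summit; the B-box letters lie nearest the start (median −14.5 bp) and hold the most blue points for their number (24 of 34).

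Letters of the E2F and CHR sites, to which E2F proteins and the DREAM complex bind, were less frequent at these summits than over the whole list, except the E2F letters at summits inside promoters of protein-coding genes. The E2F letters sought were TTCCCGC and its variants with other middle letters, which were TTCGCGC and also TTGCCGC as well as TTGGCGC, and the CHR letters were TTTGAA and TTCGAA. Within 50 bp of a summit and on both strands, the E2F letters were found at 9 of 100 member peaks, beside 642 of 3824 peaks (16.8%). Outside promoters of protein-coding genes they were at 4 of 76 member peaks (5.26%), beside 15.9% of all 1503 such peaks, and inside promoters at 5 of 24 (20.8%), beside 17.4%. TTTGAA or TTCGAA was found at 15 of 100 member peaks (15.0%), beside 34.4% of all peaks. The proximal-element letters were at 52 of the 100 member peaks and 21.8% of all, and the B-box letters at 24 of 100 and 3.50%. TTCGAA overlaps the letters GTTCGA, which were at 18 of 100 member peaks and 6.07% of all. In the 100 bp upstream, on both strands, the E2F letters were before 7.92% of bound members, 4.01% of unbound ones and 2.67% of protein-coding genes. CHR letters were before 10.9%, 20.1% and 33.3%. TGTCGG, sought on the gene's strand, was before 18.4% of bound and 6.18% of unbound snoRNA genes, and before 35.7% and 32.2% of snRNA genes.

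The 3 unbound members with the strongest pooled entries scored just under the lowest score of the optimal list. K11C4.6, in an intron of the spectrin gene unc-70, had a pooled score of 35.4 with its summit 64 bp upstream. sls-2.7 had one of 35.4 with its summit at −101 bp, and C16D9.10 one of 34.6 with its summit at −27 bp. None of the 3 had a replicate 1 entry, and their replicate 2 entries ranked 2917, 3249 and 3659. At the limit of the 250 bp extension, the farthest counted summit lay 228 bp from C27H5.10 (score 70.1), and the nearest uncounted one lay just beyond the limit at F54E7.10 (score 1768). A further 19 members had a summit between these 250 bp and 500 bp and none nearer.

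Genes for the proteins of the same particles had peaks in their own promoters far more often than protein-coding genes at large. Of 48 listed genes 41 were matched by symbol, and 32 of these (78.0%) had an optimal promoter summit, against 14.8% of all protein-coding genes. With the strongest entries of replicate 1 alone the share was 65.9% against 11.8%, and with replicate 2 alone 75.6% against 14.8%. These protein genes thus stood above the background in each replicate list. With promoters of only 250 bp upstream and 50 bp downstream, the optimal list reached 20 of the 41 (48.8%), against 10.1% of all protein-coding genes. With replicate 1 the RNA genes lay below all nuclear genes by the extended span (6.53% against 7.36%). Within 250 bp of the start they lay above them (6.11% against 4.53%). The snoRNP core had 5 of 6 matched genes with a summit. Y48A6B.3, a member of the L7Ae family of RNA-binding proteins, scored 3721, nol-58 scored 2703, dkc-1, the dyskerin gene, 511 and fib-1, the fibrillarin gene, 455. nola-3 had no summit.

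All 7 Sm genes, whose proteins form the ring on spliceosomal snRNAs, had a promoter summit, with snr-6 (2799) and snr-2 (1683) the strongest. Their summits were not at the starts of the genes but from −392 bp (snr-1) to −231 bp (snr-3) from them. Of the LSm genes 6 of 8 did, led by lsm-5 (1714), and lsm-3 and lsm-8 had none. Integrator genes, whose products process the ends of snRNAs, did in 9 of 11 cases, led by ints-4 (2337) and ints-1 (1662). Of the snRNA transcription genes 4 of 8 did: snpc-3.4 (991), snpc-1.1 (478), snpc-4 (173), which encodes a SNAPc subunit, and snpc-1.2 (106). The TATA-binding protein gene tbp-1 had none. smn-1, of the Sm assembly complex, had a weak one (38.99). For snr-4 the promoter peak is the peak of the snRNA gene C52E4.8.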

How the data were processed

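Peak lists in narrowPeak format were deposited for each of the 2 replicate libraries, for both pooled, and as an optimal list, cut by irreproducible discovery rate. Per the text files deposited with the libraries, each list was called against a control and the optimal list was derived from the pooled and replicate lists. The size range was 150 to 350 bp per the labels. Aligner, caller, threshold and read length are not given in the sources used here. The labels give the antibody target as efl-1 and call the experiment directed at the eGFP fusion. The score and the −log10 q-value of each peak are the authors' deposited values, and the summit offset is another deposited value in bp. Scores were compared within a list only, and ranks across lists. Lists of the older build were not used.

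Genes came from Ensembl release 115 of WBcel235 (the ce11 sequence) and sequences and symbols from RefSeq's copy, in which all 475 members were found by WormBase identifier with identical coordinates. No peak ended past a chromosome's end. Where 44 members shared a name in Ensembl, the RefSeq symbol was used. Summits were counted in Python 3.11.15, with figures by matplotlib 3.10.9, and sequence groups were made by single linkage at 80% identity (edlib 1.3.9.post1). The unique share is that of 36-base stretches found at 1 place in the genome, a length chosen without knowledge of the reads. Counting was tested on simulated data with planted summits.

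The members, gene lists, and letters were chosen with earlier results of these data known. The genes named were all bound snRNA genes, the 20 bound snoRNA genes with the strongest peaks, every member with a summit outside promoters of protein-coding genes, their hosts, the 3 unbound members with the strongest pooled entry and the longest runs of members less than 1000 bp apart. Members with the lowest score, with summits after the start or next to the limit of the extension were named after their values were seen, as were the particle genes. The letters TGTCNG, GCGNAACNC, GTTCNANNC and TATATAA, and other upstream lengths, were added after the data were seen. No test was made, because there was 1 group.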

Additional observations from a re-analysis of the deposited data

How the results depend on the processing

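No paired analysis was possible because there was 1 group and no result came from a test. With the strongest entries of 1 replicate in place of the optimal list, as many as it holds, the members with a summit ranged from 31 to 109, those with a summit outside promoters of protein-coding genes from 17 to 80, the median percentile of member peaks in the list from 50.6 to 64.8 (48.8 in the optimal list), and the median position from −51.0 to −44.0 bp. Bound members ranged from 3 to 22 with B-box letters alone, from 12 to 42 with proximal-element letters alone and from 15 to 42 with neither, and particle genes from 27 to 31. In each of these the lower count came without replicate 2. The share of summits in the 100 bp before the start was then 38.7%, against 82.9% without replicate 1. With no extension 7 members held a summit and 5 held one outside those promoters, since summits lie upstream of the genes. The stronger 50% of peaks gave 49 and 33. Peaks with an entry above a −log10 q of 2 in each replicate gave 9 and 2. Entries above that limit put 125 members (26.3%) in the pooled list and 10 (2.11%) in the replicate 1 list. For protein-coding genes, whose windows are longer at the median, the shares were 17.4% and 6.03%. Members thus lay above protein-coding genes in the pooled list and below them in the replicate 1 list. With promoters of 250 bp upstream and 50 bp downstream 20 particle genes had a summit, which with the narrower window is by construction. Extensions of 100 and 500 bp, a window at the start of the gene (chosen after seeing the data), any overlap of the peak, identical genes counted 1 time, other promoter limits for the members and other upstream lengths left every count within 1.5 times of the reported one. Without read counts, depth could not be weighed.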
